A study of Mus musculus with 20 samples.

Results

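The transcripts described here encode the core machinery of autophagy. The members were chosen by symbol, from a list of 32 genes, and 31 of these symbols had a row among the 39174 genes of the expression tables. The remaining one, Atg101, was found only by its gene ID under the older symbol 9430023L20Rik and is described on its own, outside every count of members. Values came from RNA-seq of cultured CD-1 mouse motoneurons, prepared from spinal cords of E12.5 embryos, enriched on an anti-p75 coating and grown with BDNF and CNTF for 7 days in chambers that keep axons apart from cell bodies and dendrites. Control motoneurons carried an empty lentiviral expression vector and Tdp-43 knockdown motoneurons a lentivirus with a shRNA against Tdp-43. The 20 libraries comprised 4 somatodendritic control, 6 somatodendritic knockdown, 4 axonal control and 6 axonal knockdown libraries. The labels do not say that the libraries of a group came from separate cultures or animals, so that p-values measure only the spread between these libraries. Nor do they say which axonal and somatodendritic libraries shared a chamber, and the main tests treated all libraries as independent. No batch is given in the labels, so that none could be examined.

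Autophagy encloses cytoplasmic cargo in a double membrane that then fuses with lysosomes. The ULK kinase complex starts the process. A class III PI3-kinase complex marks the site with phosphatidylinositol 3-phosphate. ATG9, ATG2 and the WIPI proteins bring lipid to the growing membrane, and the conjugation enzymes, with ATG4 proteases, attach proteins of the Atg8 family (LC3 and GABARAP) to it. In neurons autophagosomes are known to form preferentially in distal axons and to travel to the cell body as they mature. Tdp-43 is an RNA-binding protein that prefers UG-rich sequence.

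Depth differed between libraries. FPKM values (fragments per kilobase of exon, relative to all fragments mapped) carry no read totals, and the relative depth, read from the interval that accompanies each value, was 0.612 to 1 in somatodendritic control and 0.530 to 0.674 in axonal control libraries. It was 0.143 to 0.698 in somatodendritic knockdown and 0.103 to 0.760 in axonal knockdown libraries. Tardbp, the knockdown target, was at 19.04 to 30.8 FPKM in somatodendritic control libraries and at 0 to 8.54 FPKM in somatodendritic knockdown libraries. In axons it was at 13.4 to 32.3 FPKM in control and 1.21 to 33.2 FPKM in knockdown libraries. These groups overlapped, the library labelled axonal knockdown replicate 1 having the highest value and axonal knockdown replicate 5 lying above axonal control replicate 4. Among the motoneuron markers Chat, Isl2 and Mnx1 were listed at 0 in all libraries, Isl1 was above 0 in 8 (at most 8.03 FPKM) and Prph in 7 (at most 3.06 FPKM), whereas the neuronal tubulin Tubb3 was at 113 to 1039 FPKM.

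Gabarap and Gabarapl1, of the Atg8 family, had the highest levels among the members. The 5 family genes together took 56.6 to 63.5% of the members' summed FPKM in somatodendritic control libraries and 35.8 to 59.1% in axonal control libraries. In knockdown libraries the share was 52.9 to 63.6% in the somatodendritic and 41.4 to 59.7% in the axonal compartment. Gabarap, which encodes a GABARAP protein that binds cargo receptors and the transport machinery, had the highest mean of the 31 members in all 4 groups, with 158 ± 13.02 FPKM (SD, n = 4) in somatodendritic control. Gabarapl1, a close relative of Gabarap, followed in second place in all 4 groups, with 94.95 ± 10.2 FPKM (SD, n = 4) in somatodendritic control. FPKM are per length, but pre-amplification by PCR and overlap with other genes may still act on them. Comparisons of levels between genes are therefore approximate.

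Members outside the Atg8 family had lower group means than Gabarap and Gabarapl1, while some reached the level of the other Atg8 genes. In axonal control libraries Becn1 had a mean of 26.96 FPKM, against 23.2 FPKM for Map1lc3a. In somatodendritic control libraries the group means of the 4 ULK complex genes found by symbol spanned 4.53 to 27.4 FPKM, those of the 6 genes of the PI3-kinase complex 1.999 to 22.7 FPKM, and those of the 5 lipid supply genes 4.34 to 9.41 FPKM. The 6 conjugation enzymes spanned 1.499 to 27.2 FPKM, with Atg12, the ubiquitin-like protein joined to ATG5, at the top and Atg10, the enzyme that transfers it, at the bottom. The 4 ATG4 proteases spanned 1.10 to 13.3 FPKM. Atg4a, with 12 of 20 libraries at 0 and a mean of 0.684 FPKM, was the only member under the limit of 1 FPKM that a gene had to reach to be tested, so that 30 members were tested.

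**Figure D1:**
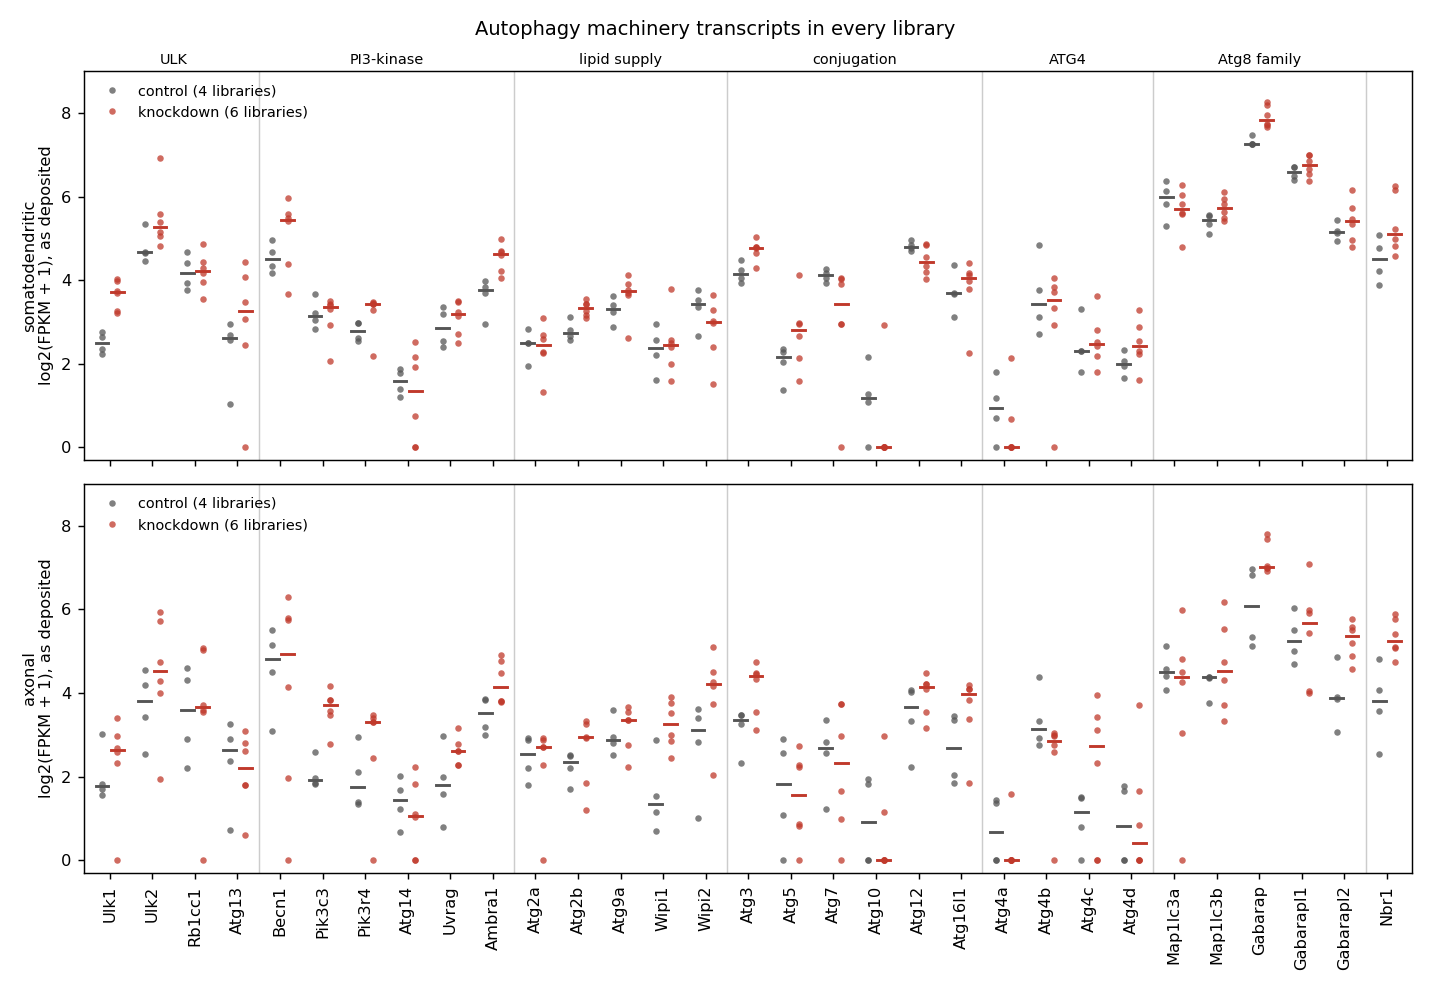
Deposited FPKM of the 31 members as log2(FPKM + 1) on the y axis, in somatodendritic (top) and axonal (bottom) libraries, by role; each point is a library, grey for control and red for Tdp-43 knockdown, and each bar is the median of its group. Gabarap stands highest in both panels, and points at 0 collect in the axonal knockdown group, where 1 library lists 13 members at 0.

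In all, 16 of the 31 members were above 0 in every library and 15 were at 0 in at least 1. Somatodendritic control libraries listed 0 or 1 members at 0 and somatodendritic knockdown libraries 1 to 4. Each axonal control library listed 2 members at 0, and axonal knockdown libraries listed 1 to 13. The library with 13 was axonal knockdown replicate 5, the shallowest of all (relative depth 0.103). For zeros of single members in that library, depth and level cannot be told apart.

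The precision of a value differed widely between members. Each deposited FPKM carries a 95% interval, and the distance from the value to the upper end of its interval, divided by the value, gives a relative width, at which 1 means that the interval is as wide to one side as the value itself. Over libraries with a value above 0 the median relative width was 0.277 for Gabarapl1, 0.304 for Gabarap, 0.385 for Atg2b, 0.484 for Atg12 and 0.580 for Ulk1. For 17 of 31 members it was above 1, among them Wipi1 with 5.86 and Atg7 with 3.85. The interval reached down to 0 in all libraries above 0 for 6 members, Atg13, Atg2a, Wipi1, Atg7, Atg16l1 and Atg4a. It did so in 17 of 20 such libraries for Nbr1, 18 of 20 for Ambra1, 15 of 19 for Becn1, 15 of 18 for Atg4b, 12 of 15 for Atg4d and 10 of 20 for Wipi2, against none for Gabarap. Taken as 2 SD of a count, the intervals of Atg5, Atg10 and Atg14 gave whole fragments, within 0.1, in every library above 0. Those of the other members did not, so that their intervals are not read as numbers of fragments. In the annotation of the files several members overlap another gene, among them Nbr1 (NBR2), Becn1 (Cntd1), Map1lc3b (Zcchc14), Gabarapl1 (1700101I11Rik), Atg4b (Thap4) and Atg4d (Kri1). Whether strand was used in counting is not given in the sources used here, so that reads of such pairs may not be told apart. The libraries were amplified by PCR, so that counting error is a lower limit of the error.

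**Figure D2:**
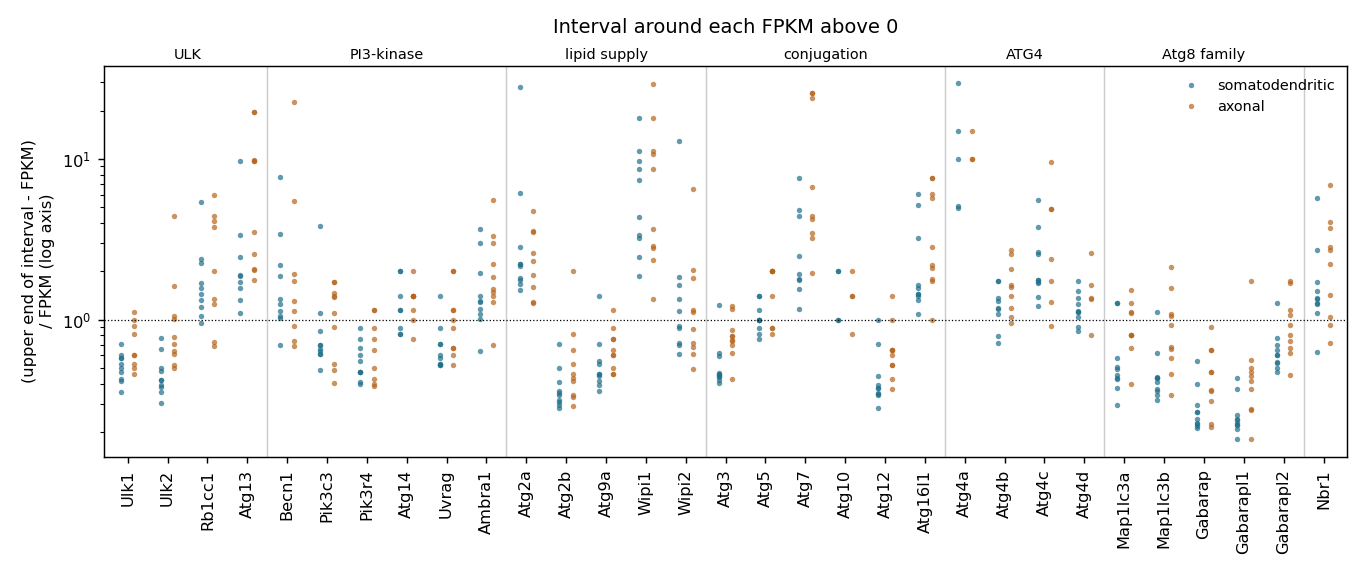
Distance from each FPKM to the upper end of its deposited 95% interval, divided by the FPKM, on a log axis, for each member and every library with a value above 0; blue points are somatodendritic and brown points axonal libraries, and the dotted line marks 1. Gabarap lies under 1 in all libraries, whereas all values of Wipi1, Atg7 and Atg4a lie above 1.

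Because Tdp-43 prefers UG-rich RNA, the reference transcripts of the members were searched for alternating TG runs. Runs of at least 12 bases (TGTGTGTGTGTG or GTGTGTGTGTGT, with odd lengths read on, on the transcript strand) were found in annotated protein-coding transcripts of 6 of the 31 members, or 19.4%. Among 11923 protein-coding genes that averaged 1 FPKM or more, 9.07% held such a run. At 10 bases the counts were 7 of 31 members (22.6%) against 13.7%, and at 8 bases 12 of 31 (38.7%) against 32.6%. The following 4 stretches are shown because they lie in the 3' UTR of a member in a run short enough to print, with the run in capitals. Coordinates are on GRCm38 from GENCODE M21.
Ulk1 (chr5:110784622-110784651, minus strand, exon 28 of 28): tgggtggcTGTGTGTGTGTGTGgctggctg
Atg2b (chr12:105616511-105616540, minus strand, exon 42 of 42): ctgtgtcTGTGTGTGTGTGTGTGcatctgt
Atg16l1 (chr1:87791876-87791905, plus strand, exon 18 of 18): acatagcttTGTGTGTGTGTGaggaaagga
Atg4b (chr1:93789431-93789459, plus strand, exon 13 of 13): caaagtctTGTGTGTGTGTGTtgattttt

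The longest run, of 39 bases, was in the 3' UTR of Atg10, and a run of 12 bases was in a single-exon transcript annotated for Map1lc3b. The run of Atg4b lies just beyond the end that the expression tables give for the gene, 93789434 on chromosome 1. Of these 6 genes only Ulk1 and Atg4b had an unadjusted p under 0.05 between knockdown and control, and they differed in opposite directions and in different compartments. A run is a description of the sequence, and binding was not measured here.

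The first comparison asked which autophagy transcripts differ in the somatodendritic compartment when Tdp-43 is depleted. In these libraries Ulk1, Ambra1 and Gabarap were higher and Atg12 was lower at an unadjusted p under 0.05, and none of the 30 members tested passed after adjustment over all genes (limma, Benjamini-Hochberg, smallest adjusted p = 0.15). Of all 13762 genes tested 13.8% had an unadjusted p under 0.05, against 13.3% of the members (4 of 30). By direction, 4.59% of all genes were higher (3 members) and 9.22% lower (1 member), and 0.974% of all genes passed after adjustment. After scaling, the control and knockdown values of 1 member, Ulk1, did not overlap, as for 5.49% of all genes. As deposited this held for 3 members, Ulk1, Ambra1 and Gabarap, and 6.2% of all genes. The number of members that differed is therefore at the level of all genes. It was 2 without somatodendritic control replicate 2. The count on FPKM as deposited was 5, all higher, with Atg3 and Nbr1 added to Ulk1, Ambra1 and Gabarap and without Atg12. In a single fit of all 20 libraries it was 1.

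Ulk1, the kinase that starts autophagosome formation (chromosome 5, 110784488 to 110810097), had the largest difference upwards. Its somatodendritic control values were 4.10, 5.22, 3.73 and 5.80 FPKM in replicates 1 to 4. In the 6 knockdown libraries the lowest value was 8.21, the median 12.2 and the highest 15.3 FPKM. All knockdown libraries were above all control libraries. The log2 change was 0.97 (SE 0.29, 95% interval 0.33 to 1.605) on the log2(scaled FPKM + 1) scale, with an unadjusted p of 0.0061 and an adjusted p of 0.15 in the limma fit. No deposited interval of these libraries reached 0, and the relative widths were 0.4998 to 0.602 in control and 0.354 to 0.707 in knockdown libraries. Without any 1 library the p stayed between 0.00504 and 0.022, and without the libraries of relative depth under 0.5 the change was 0.87 (unadjusted p = 0.0134). In a single fit with all 20 libraries the change was 0.94 with an unadjusted p of 0.0852.

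The other 3 ULK complex genes did not pass in this compartment. Rb1cc1 (FIP200), the scaffold of the complex, had a log2 change of -0.18 (95% interval -0.81 to 0.45). Ulk2, the paralogue of Ulk1, had 0.49 (-0.33 to 1.32) and Atg13, the regulatory subunit, 0.43 (-1.17 to 2.03). These intervals hold a change as large as that of Ulk1 for Ulk2 and Atg13 but not for Rb1cc1.

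Gabarap (chromosome 11, 69991143 to 69994951) was the most abundant member that differed. Control values were 177, 151, 152 and 151 FPKM in the somatodendritic compartment. The knockdown libraries had a lowest value of 201, a median of 229 and a highest value of 304 FPKM. As deposited, all knockdown libraries were above all control libraries, and after scaling the groups overlapped. This gave a log2 change of 0.39 (SE 0.15, 95% interval 0.08 to 0.71), with an unadjusted p of 0.018 and an adjusted p of 0.24. On FPKM as deposited it was 0.61 with an adjusted p of 0.06. Without control replicate 4 the change was 0.36 (unadjusted p = 0.0515), and in a single fit of all 20 libraries it was 0.39 (unadjusted p = 0.186).

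The remaining Atg8 family genes did not differ by the test in somatodendritic libraries. Map1lc3a, an LC3 gene, was at 69.7, 38.4, 82.3 and 55.4 FPKM in control and at 26.9 to 76.6 FPKM (median 51.6) in knockdown libraries, a log2 change of -0.43 (95% interval -1.06 to 0.19). Map1lc3b, the LC3 gene most used as an autophagosome marker, was at 45.4, 39.6, 46.1 and 33.6 FPKM in control and at 41.6 to 67.5 FPKM (median 51.9) in knockdown libraries, a change of 0.13 (-0.25 to 0.51). The groups overlapped for both LC3 genes. Gabarapl1 was at 104, 83.5, 103 and 89.2 FPKM in control and at 82.2 to 127 FPKM (median 107) in knockdown libraries, a change of -0.06 (-0.42 to 0.31). Gabarapl2 (GATE-16) was at 34.2, 29.4, 35.4 and 42.7 FPKM in control and at 26.7 to 70.5 FPKM (median 41.4) in knockdown libraries, a change of 0.03 (-0.54 to 0.59). The sign for Gabarapl1 turned with FPKM as deposited (0.16).

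Ambra1, a scaffold that ties Beclin 1 to the cytoskeleton and ULK1, was the third transcript with a higher value. Control values were 13.2, 6.71, 11.8 and 14.7 FPKM, and knockdown values spanned 15.5 to 30.4 FPKM with a median of 23.8. As deposited the groups did not overlap. On the log2 scale this was a change of 0.73 (SE 0.26, 95% interval 0.16 to 1.29), with an unadjusted p of 0.0162 and an adjusted p of 0.23. The deposited interval reached 0 in all 4 control and in 5 of 6 knockdown libraries, and without control replicate 2 the change was 0.52 (unadjusted p = 0.0676).

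The other genes of the PI3-kinase complex had intervals that include 0. Becn1 (Beclin 1) had a log2 change of 0.34 (95% interval -0.52 to 1.19), Pik3c3, the lipid kinase itself, -0.28 (-0.996 to 0.44), and Pik3r4, its regulatory subunit, 0.25 (-0.46 to 0.96). Atg14 and Uvrag, the subunits that direct the complex to autophagosomes or endosomes, had -0.45 (-1.67 to 0.77) and 0.04 (-0.70 to 0.78).

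Atg12 was the transcript with the lower value. It stood at 26.1, 30.02, 27.8 and 24.98 FPKM in control libraries and at 15.4 to 28.0 FPKM, with a median of 20.7, in knockdown libraries. The knockdown values reached into the control range in replicates 1 and 2. As a log2 change this was -0.55 (SE 0.21, 95% interval -1.01 to -0.09), with an unadjusted p of 0.0223 and an adjusted p of 0.27. On FPKM as deposited it was -0.35 (unadjusted p = 0.135), without the libraries of relative depth under 0.5 it was -0.37 (unadjusted p = 0.0809), and without control replicate 2 it was -0.49 (unadjusted p = 0.066).

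The largest difference downwards belonged to Atg7, the E1-like enzyme of both conjugation reactions, with a log2 change of -1.30 (95% interval -2.72 to 0.12) that did not pass. Its knockdown values spanned 0 to 15.6 FPKM, and every deposited interval reached 0. The E2-like enzyme Atg3 had 0.34 (-0.08 to 0.76). The ATG9, ATG2 and WIPI genes had changes between -0.70 and 0.34, and the 3 ATG4 genes tested between -0.82 and 0.31. Nbr1, a receptor that links ubiquitinated cargo to LC3, was at 32.9, 13.7, 17.7 and 26.4 FPKM in control and at 23.0 to 75.1 FPKM (median 33.6) in knockdown libraries, a change of 0.64 (-0.11 to 1.39).

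Over the 30 members tested, 16 log2 changes were above 0 and 14 below in the somatodendritic compartment. Their median was 0.03, against -0.13 over all genes, of which 40.7% were above 0. Scaling moved both: on FPKM as deposited the median was 0.23 for the members and 0.04 for all genes, and 6 of the 30 members turned sign under at least 1 of the other scalings tried.

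**Figure D3:**
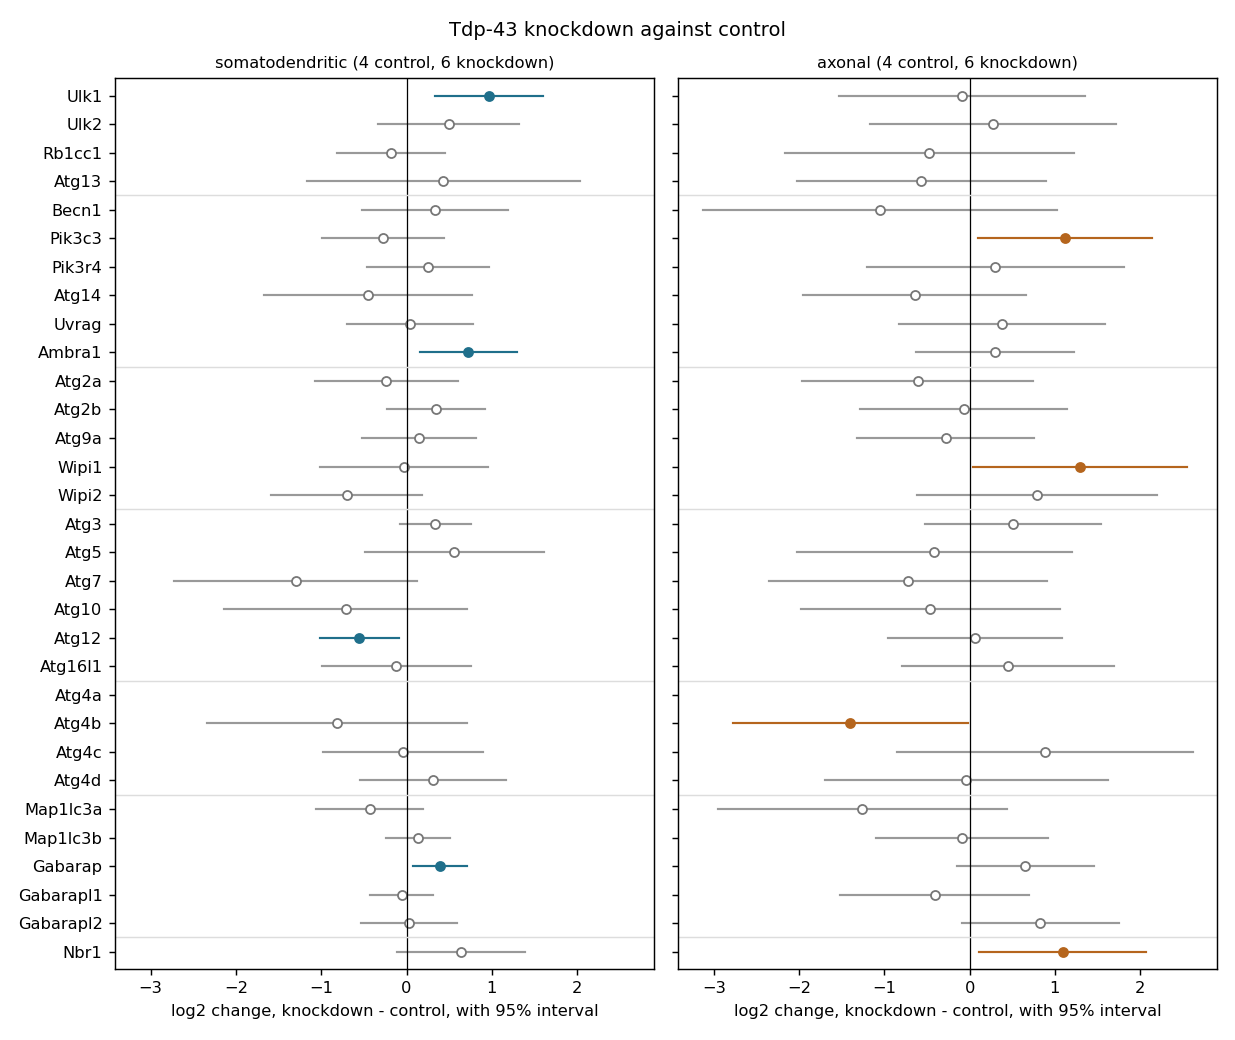
Log2 change of each member in Tdp-43 knockdown against control libraries, on the log2(scaled FPKM + 1) scale, with the 95% interval as a line, in the somatodendritic (left) and the axonal compartment (right). Filled points have an unadjusted p under 0.05, 4 in each panel, and the axonal intervals are wider (median SE 0.63 against 0.34).

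The same question was asked of axons. Nbr1, Pik3c3 and Wipi1 were higher and Atg4b was lower in axonal knockdown than in axonal control libraries at an unadjusted p under 0.05, and none of 30 members passed after adjustment (limma, smallest adjusted p = 0.52). These 4 members are 13.3% of those tested, against 8.6% of all 13958 genes. By direction, 2.14% of all genes were higher (3 members) and 6.46% lower (1 member), and 0.401% passed after adjustment. No member's groups failed to overlap after scaling, against 2.47% of all genes, and 1 member's did as deposited, against 3.25%. The axonal count rested on single libraries. Without axonal knockdown replicate 6 it was 0, without axonal control replicate 1 or 3 it was 1, and without axonal control replicate 2 or axonal knockdown replicate 1, 3 or 5 it was 2. Without the 3 axonal libraries of relative depth under 0.5 it was also 2. With FPKM as deposited it was 5, all higher, namely Pik3c3, Wipi1, Nbr1, Gabarap and Gabarapl2, and Atg4b was no longer among them. In a single fit of all 20 libraries it was 6, with 5 higher and 1 lower.

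Pik3c3 (chromosome 18, 30272747 to 30348126) encodes the lipid kinase VPS34. Its axonal control values were 2.93, 2.53, 2.61 and 4.99 FPKM. In axonal knockdown libraries the lowest value was 5.84, the median 12.1 and the highest 17.1 FPKM. As deposited every knockdown library was above every control library, and after scaling the groups overlapped. Its log2 change was 1.12 (SE 0.48, 95% interval 0.09 to 2.14), with an unadjusted p of 0.0344 and an adjusted p of 0.53. The deposited interval reached 0 in all 4 control and in 2 of 6 knockdown libraries. The p rose above 0.05 in 5 of the 10 fits that left out 1 library, those without axonal control replicate 1, 2 or 3 or axonal knockdown replicate 3 or 6. The highest of these was 0.0782, with a change of 1.03, without axonal control replicate 2.

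Nbr1 was at 27.2, 15.8, 4.80 and 10.9 FPKM in axonal control and at 25.7 to 58.3 FPKM (median 37.3) in axonal knockdown libraries. Only control replicate 1 reached the knockdown range. In the fit the log2 change was 1.09 (SE 0.46, 95% interval 0.12 to 2.06), with an unadjusted p of 0.0307 and an adjusted p of 0.52. The deposited interval reached 0 in all 4 control and in 4 of 6 knockdown libraries. Without axonal control replicate 3 the change was 0.71 (unadjusted p = 0.141).

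Wipi1, a reader of phosphatidylinositol 3-phosphate, was at 1.89, 1.23, 0.615 and 6.38 FPKM in axonal control and at 4.41 to 14.05 FPKM (median 8.72) in axonal knockdown libraries. Control replicate 4 lay inside the knockdown range. The fitted log2 change was 1.30 (SE 0.59, 95% interval 0.03 to 2.56, unadjusted p = 0.0447, adjusted p = 0.56), and the deposited interval reached 0 in all 10 libraries. The p of Wipi1 was above 0.05 in 7 of the 10 fits that left out 1 library, and without axonal control replicate 3 the change was 1.006 (unadjusted p = 0.139). With a pseudocount of 5 it was 0.70 (unadjusted p = 0.0558), and without the libraries of relative depth under 0.5 it was 1.17 (unadjusted p = 0.0966). Atg4b, the main protease that trims and releases Atg8 proteins, was at 20.0, 6.56, 9.14 and 5.78 FPKM in axonal control and at 0 to 7.30 FPKM (median 6.30) in axonal knockdown libraries. The groups overlapped, and the value of 0 was that of the shallowest library. The change was -1.40 (SE 0.65, 95% interval -2.78 to -0.02, unadjusted p = 0.0472, adjusted p = 0.57), and without that library it was -0.95 (unadjusted p = 0.0681). The p of Atg4b was above 0.05 in 7 of the 10 fits that left out 1 library, at most 0.171 without axonal control replicate 1, and it was 0.177 on FPKM as deposited, with a change of -0.96.

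In axons Ulk1, Ambra1 and Atg12 had wide intervals. Ulk1 was at 7.07, 1.94, 2.56 and 2.26 FPKM in axonal control and at 0 to 9.66 FPKM (median 5.25) in axonal knockdown libraries, a log2 change of -0.09 (95% interval -1.53 to 1.36) that was 0.31 on FPKM as deposited. Ambra1 had 0.30 (-0.63 to 1.23) and Atg12 0.06 (-0.96 to 1.08). The axonal intervals hold the somatodendritic changes of all 3.

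In the Atg8 family no axonal knockdown difference passed. Gabarap was at 39.5, 112, 33.7 and 123 FPKM in axonal control and at 119.9 to 223 FPKM (median 127) in axonal knockdown libraries, a log2 change of 0.66 (95% interval -0.15 to 1.46). Its axonal control values fell into a low and a high pair. Gabarapl2 was at 13.6, 7.35, 28.2 and 14.1 FPKM in control and at 22.9 to 53.9 FPKM (median 40.1) in knockdown libraries, a change of 0.83 (-0.09 to 1.75). On FPKM as deposited the changes were 1.17 for Gabarap (unadjusted p = 0.0124) and 1.33 for Gabarapl2 (unadjusted p = 0.00839).

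Map1lc3a was at 22.8, 33.6, 20.4 and 15.8 FPKM in axonal control and at 0 to 62.0 FPKM (median 19.9) in axonal knockdown libraries, a log2 change of -1.26 (95% interval -2.95 to 0.44). Its value of 0 was that of axonal knockdown replicate 5, the shallowest library. Map1lc3b was at 12.6, 19.9, 19.9 and 19.6 FPKM in control and at 9.11 to 71.0 FPKM (median 22.4) in knockdown libraries, a change of -0.09 (-1.10 to 0.92). Gabarapl1 was at 24.8, 44.3, 64.0 and 31.1 FPKM in control and at 15.1 to 135 FPKM (median 50.5) in knockdown libraries, a change of -0.41 (-1.52 to 0.70). For all 3 genes axonal knockdown replicate 3 had the highest value and the knockdown libraries spread to both sides of the control libraries. On FPKM as deposited the signs for Map1lc3b (0.41) and Gabarapl1 (0.10) turned.

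Over all 30 members the axonal median log2 change was -0.06, against -0.17 over all genes, with 14 changes above 0 and 16 below. On FPKM as deposited the medians were 0.38 and 0.23. Members with low values were not informative at this depth: Atg14, Atg10 and Atg5 had axonal intervals from -1.95 to 0.67, -1.98 to 1.06 and -2.03 to 1.204.

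**Figure D4:**
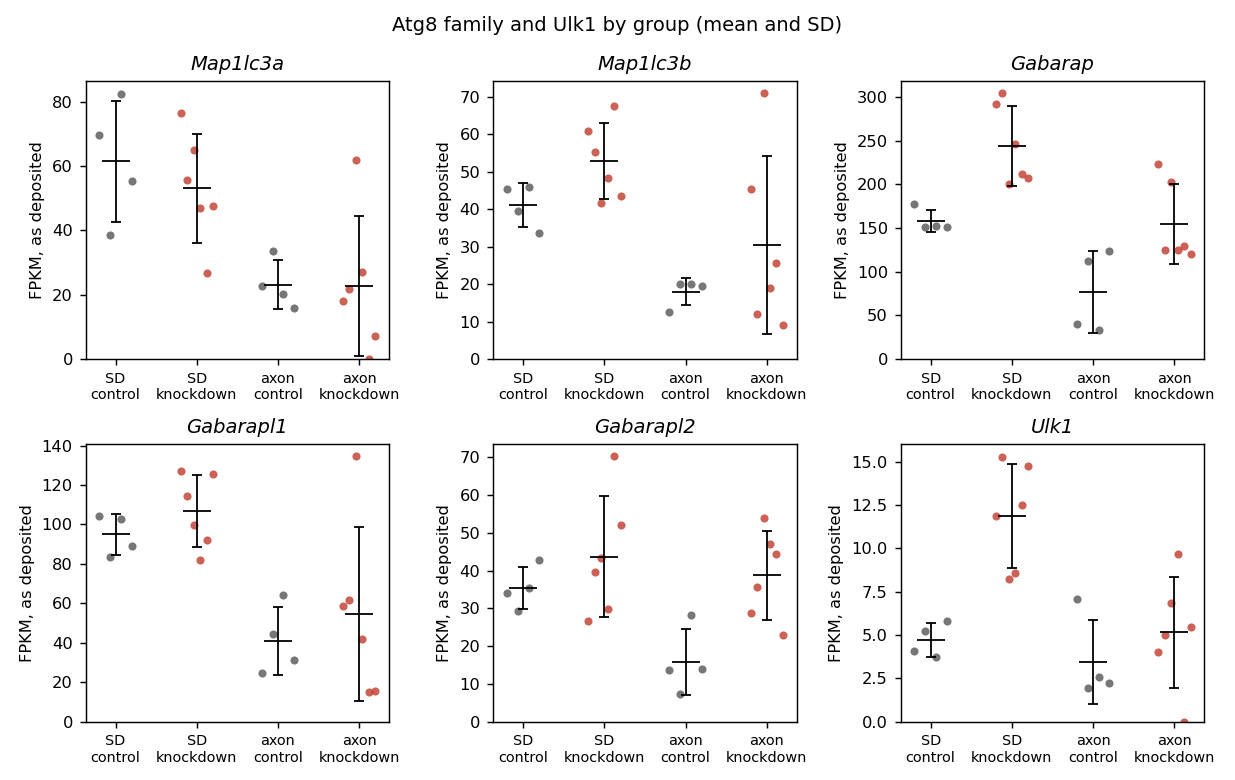
Deposited FPKM of the 5 Atg8 family genes and Ulk1 in each library (points), by compartment (SD, somatodendritic; axon, axonal) and condition, with the group mean and SD in black. Gabarap and Ulk1 have somatodendritic knockdown values that lie above all 4 control values, and the axonal knockdown groups have the widest spread for Map1lc3b and Gabarapl1.

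The second question was how the transcripts are distributed between the compartments. In control motoneurons 22 of 30 members had a lower value in axonal than in somatodendritic libraries, among them all 5 Atg8 family genes, with a median log2 difference over the members of -0.38 against -0.03 over all genes. Of all genes 48.2% had a higher axonal value, against 8 of 30 members. The count below 0 was 27 with FPKM as deposited and 21 with quantile normalization. In bulk samples, less of a transcript in axons and more RNA of other cells in the axonal libraries cannot be told apart.

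At an unadjusted p under 0.05 Atg12 and Gabarap were lower in control axons and no member was higher. These are 2 of 30 members (6.67%), against 15.4% of all 14062 genes, 8.09% higher and 7.31% lower. None of the members passed after adjustment (limma, smallest adjusted p = 0.27), against 2.1% of all genes. After scaling 3 members had groups that did not overlap, against 15.7% of all genes. Without axonal control replicate 1 or somatodendritic control replicate 1, 2 or 3 the count was 0, and without axonal control replicate 3 or somatodendritic control replicate 4 it was 1. As deposited it was 8, all lower, with Pik3c3, Uvrag, Atg3, Map1lc3b, Gabarapl1 and Gabarapl2 added to Atg12 and Gabarap.

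Atg12 was at 24.98 to 30.02 FPKM in the 4 somatodendritic control libraries and at 3.70, 15.2, 9.06 and 15.7 FPKM in the axonal ones. All axonal values were below all somatodendritic ones. The log2 difference was -0.87 (SE 0.38, 95% interval -1.66 to -0.07, unadjusted p = 0.0334, adjusted p = 0.27), and without axonal control replicate 1 it was -0.46 (unadjusted p = 0.205). For Gabarap the mean was 158 ± 13.02 FPKM in the somatodendritic and 77.0 ± 46.9 FPKM (SD, n = 4) in the axonal control libraries. The log2 difference of Gabarap was -0.67 (SE 0.31, 95% interval -1.31 to -0.03, unadjusted p = 0.0415, adjusted p = 0.30), and it was -0.39 without axonal control replicate 3 (unadjusted p = 0.213) and -0.43 without axonal control replicate 1 (unadjusted p = 0.186).

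The Atg8 family genes had similar differences in control. They were -0.80 for Map1lc3a (95% interval -2.33 to 0.74), -0.60 for Map1lc3b (-1.39 to 0.20), -0.70 for Gabarapl1 (-1.62 to 0.23) and -0.69 for Gabarapl2 (-1.49 to 0.11). All 5 genes kept this direction with FPKM as deposited and with quantile normalization. As deposited all 4 axonal control values of each of the 5 genes were below all 4 somatodendritic control values, and after scaling this held for Map1lc3b alone. As deposited 11 of 30 members and 21.8% of all genes had groups that did not overlap. Their order of mean FPKM was Gabarap, Gabarapl1, Map1lc3a, Map1lc3b and Gabarapl2 in both compartments of control motoneurons. In axonal control libraries the values of every pair of neighbours in this order overlapped. In somatodendritic control libraries those of Map1lc3a and Map1lc3b and those of Map1lc3b and Gabarapl2 did, whereas Gabarap, Gabarapl1 and Map1lc3a were apart from each other.

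The PI3-kinase complex was divided in control axons. Of its 6 genes 3 had a higher and 3 a lower axonal value, with log2 differences between -0.67 and 0.59, and none passed. Atg14 and Ambra1, higher in this fit, were lower with FPKM as deposited. The 5 lipid supply genes lay between -0.38 and 0.49, the 4 ULK genes between -0.56 and 0.46, and the 6 conjugation enzymes between -1.12 and 0.07.

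In knockdown motoneurons 22 of 30 members again had a lower axonal value, with a median log2 difference of -0.35 against -0.05 over all genes. At an unadjusted p under 0.05 Ulk1, Atg4d, Map1lc3a, Map1lc3b and Gabarapl1 were lower and Pik3c3, Wipi1 and Wipi2 were higher in axons. These 8 members are 26.7% of those tested, against 20.7% of all genes. By direction 3 members were higher against 9.52% of all genes, and 5 lower against 11.1%. None passed after adjustment (limma, smallest adjusted p = 0.088), against 5.35% of all genes. No member's groups were apart after scaling, against 2.46% of all genes. Without the libraries of relative depth under 0.5 the count was 4, as it was without somatodendritic knockdown replicate 2 or 6, and without axonal knockdown replicate 2 it was 5. As deposited it was 8 with another split, 1 higher and 7 lower.

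Gabarapl1 had the smallest p. Its knockdown values were 82.2 to 127 FPKM in the somatodendritic and 15.1 to 135 FPKM in the axonal libraries. One axonal library, replicate 3, lay above all somatodendritic ones. The log2 difference was -1.07 (SE 0.36, 95% interval -1.83 to -0.32, unadjusted p = 0.00733, adjusted p = 0.088), and it had an unadjusted p under 0.05 in all alternatives tried. Without axonal knockdown replicate 3 the adjusted p was 0.0199.

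The LC3 genes lay in the same direction. Map1lc3a had a log2 difference of -1.68 (SE 0.60, 95% interval -2.94 to -0.43, unadjusted p = 0.0107) and Map1lc3b one of -0.85 (SE 0.31, -1.50 to -0.19, unadjusted p = 0.0132). Map1lc3a was at 0 in axonal knockdown replicate 5, the shallowest library. Over the alternatives and the fits without 1 library its difference spanned -2.26 to -0.92. Gabarap had -0.43 (-0.95 to 0.09) and Gabarapl2 0.10 (-0.55 to 0.75). The intervals of Gabarap and Gabarapl2 include 0, and for Gabarapl2 the sign turned with both other scalings.

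Ulk1 was at 8.21 to 15.3 FPKM in somatodendritic and at 0 to 9.66 FPKM in axonal knockdown libraries, a log2 difference of -1.09 (SE 0.47, 95% interval -2.06 to -0.12, unadjusted p = 0.0294). Only replicate 4 of the axonal libraries reached the somatodendritic range, and without axonal knockdown replicate 5 the difference was -0.62 (unadjusted p = 0.0985). Wipi2, a reader of phosphatidylinositol 3-phosphate that recruits ATG16L1, was at 12.6, 5.31, 9.20 and 10.496 FPKM in somatodendritic control and at 9.64, 6.07, 11.3 and 1.012 FPKM in axonal control libraries. In knockdown libraries it was at 1.86 to 11.4 FPKM (median 7.002) in the somatodendritic and at 3.09 to 33.1 FPKM (median 17.5) in the axonal compartment. The knockdown difference was 1.36 (SE 0.52, 0.29 to 2.44, unadjusted p = 0.015), and without the libraries of relative depth under 0.5 it was 0.48 (unadjusted p = 0.43).

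The other transcripts were Wipi1, Pik3c3 and Atg4d. Wipi1 was at 2.003 to 12.8 FPKM (median 4.48) in somatodendritic knockdown libraries and 0.97 higher in axons on the log2 scale (SE 0.46, unadjusted p = 0.0446). Its somatodendritic control values were 6.77, 2.04, 3.61 and 4.94 FPKM. Pik3c3 was at 3.21 to 10.3 FPKM (median 9.26) in somatodendritic knockdown and at 7.28, 8.32, 6.18 and 11.8 FPKM in somatodendritic control libraries, and its knockdown difference between compartments was 0.72 (SE 0.33, unadjusted p = 0.0393). Without the libraries of relative depth under 0.5 these genes, Ulk1, Wipi2, Map1lc3b and Atg4d had an unadjusted p above 0.05, and Gabarapl1 and Map1lc3a stayed under it. Atg4d, an ATG4 protease, was at 3.16, 2.84, 2.18 and 4.07 FPKM in somatodendritic control, 2.07 to 8.71 FPKM (median 4.39) in somatodendritic knockdown, 0, 0, 2.41 and 2.15 FPKM in axonal control and 0 to 12.1 FPKM (median 0.391) in axonal knockdown libraries. Its knockdown difference between compartments was -1.26 (SE 0.59, unadjusted p = 0.0428).

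**Figure D5:**
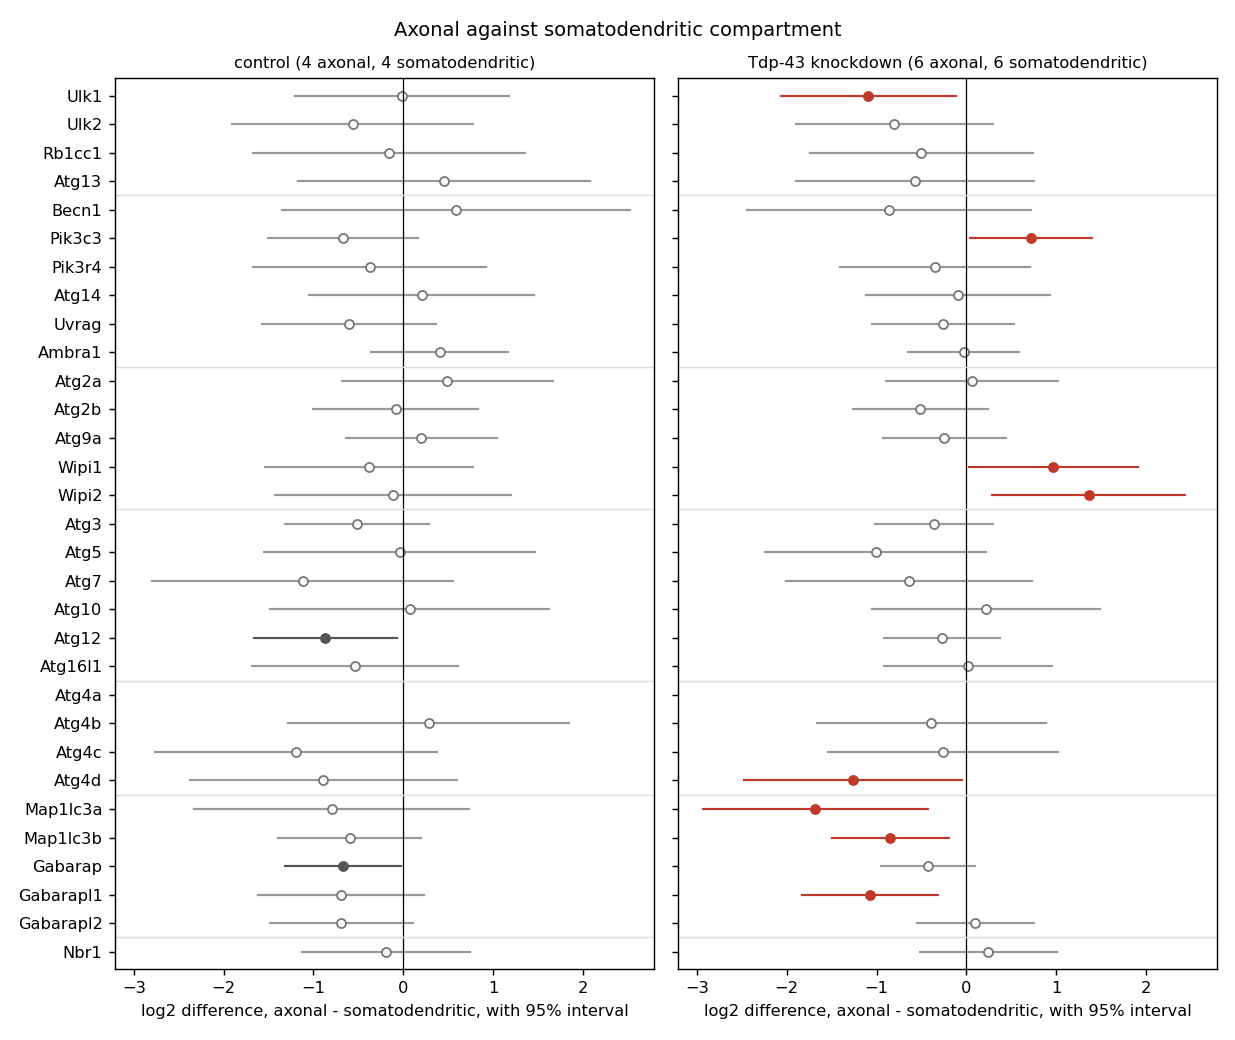
Log2 difference of each member between axonal and somatodendritic libraries, on the log2(scaled FPKM + 1) scale with the 95% interval as a line, in control (left) and Tdp-43 knockdown motoneurons (right); filled points have an unadjusted p under 0.05. In each panel 22 of 30 members lie left of 0, and all 5 Atg8 family genes do so in control.

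Marker levels moved with the compartment. The 6 fibroblast and meninges markers summed to 15.4 to 56.6 FPKM in somatodendritic control and 118 to 526 FPKM in axonal control libraries, with Lum at 0 in all axonal libraries, and to 15.002 to 60.5 and 80.9 to 641 FPKM in knockdown libraries. The 8 neuronal markers summed to 2291 to 2619 FPKM in somatodendritic and 656 to 936 FPKM in axonal control libraries. The 6 markers of dividing cells summed to 70.6 to 83.6 FPKM in somatodendritic and 135 to 217 FPKM in axonal control libraries. The 6 microglia markers summed to 15.1 to 21.7 FPKM in somatodendritic and 0 to 7.72 FPKM in axonal control libraries, with Aif1 at 0 in both. The 7 markers of the oligodendrocyte and Schwann lineage summed to 26.2 to 53.6 FPKM (median 44.6) in somatodendritic and 6.10 to 30.9 FPKM (median 16.4) in axonal control libraries. The 7 markers of astroglia and radial glia summed to 403 to 494 FPKM in somatodendritic and 90.9 to 681 FPKM in axonal control libraries, which overlapped. The part of these cells in the compartment differences of the members was not tested. Between control and knockdown the somatodendritic sums overlapped for neuronal (2267 to 3247 FPKM in knockdown) and fibroblast markers, whereas those of dividing cells were lower in knockdown (11.05 to 69.9 FPKM). In axons the 6 nuclear and dendritic RNAs, among them Malat1, Meg3 and Map2, summed to 517 to 831 FPKM in control and 1303 to 2798 FPKM in knockdown libraries, which did not overlap. In somatodendritic libraries the same RNAs summed to 1170 to 1432 FPKM in control and 1150 to 1852 FPKM in knockdown. The axonal sums were thus below the somatodendritic ones in control and overlapped them in knockdown. The axonal sums of control and knockdown overlapped for neuronal (755 to 2124 FPKM in knockdown), fibroblast and dividing cell markers (39.9 to 340.2 FPKM in knockdown). The part of these RNAs and cells in the axonal knockdown differences of Pik3c3, Nbr1 and Wipi1 was not tested. Nor was their part in the differences between compartments in knockdown motoneurons, or in how these differ from control.

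Whether the knockdown changed the distribution between compartments was tested as the difference of the differences. Pik3c3 was the only member of 30 with an unadjusted p under 0.05, or 3.33%, against 5.61% of all genes. The axonal minus somatodendritic difference was -0.67 in control and 0.72 in knockdown libraries, so that it was larger by 1.39 in knockdown (SE 0.52, 95% interval 0.31 to 2.47, unadjusted p = 0.0139, adjusted p = 0.83). None of the members passed after adjustment, against 0.0711% of all genes. The test held an unadjusted p under 0.05 for Pik3c3 in each alternative and without each single library. The number of members under it was 4 with FPKM as deposited, where Wipi1, Wipi2 and Gabarapl2 joined Pik3c3, 2 with array weights, 2 without the libraries of relative depth under 0.5, 3 without axonal control replicate 3 and 2 without axonal control replicate 4, axonal knockdown replicate 4 or 6, or somatodendritic knockdown replicate 1. For Ulk1 the difference of differences was -1.08 and for Nbr1 0.44, and neither passed, so that a difference between the compartments is not shown for these 2 transcripts.

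Atg101, the subunit that stabilises ATG13 in the ULK complex (chromosome 15, 101284301 to 101290934, listed as 9430023L20Rik), was low in all groups. Its somatodendritic control values were 4.53, 1.84, 6.77 and 1.49 FPKM, and its knockdown values were 0 in 4 libraries and at most 3.23 FPKM. In axons the control values were 5.62, 12.3, 3.34 and 8.51 FPKM and the knockdown values 0 to 4.46 FPKM (median 0.799). The axonal values of 0 were those of knockdown replicates 2, 4 and 5, with relative depths of 0.316, 0.316 and 0.103. These are the axonal libraries of relative depth under 0.5, so that depth and level cannot be told apart for these zeros. No fit without them is given here for Atg101. As deposited the groups overlapped in both compartments, and after scaling they did not in axons. It had a log2 change of -1.56 (95% interval -2.79 to -0.33, unadjusted p = 0.0173, adjusted p = 0.24) in somatodendritic and -2.37 (-3.74 to -0.998, unadjusted p = 0.00213, adjusted p = 0.21) in axonal libraries. Between compartments Atg101 was 1.39 higher in axons of control motoneurons on the log2 scale (95% interval 0.09 to 2.70, unadjusted p = 0.0377, adjusted p = 0.29), and in knockdown motoneurons the difference was 0.35 (-0.71 to 1.42). Its intervals gave whole fragments, no library had more than 6 of them, and 7 of 20 libraries listed it at 0.

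Genes around this machinery were taken from 4 further lists of receptors, upstream regulators, other early factors and factors of fusion and transport. In the somatodendritic compartment 5 of 63 genes tested had an unadjusted p under 0.05 with knockdown, 3 higher and 2 lower, and in axons 6 of 64, 2 higher and 4 lower. These are 7.94% of the listed genes tested against 13.8% of all genes in the somatodendritic compartment, and 9.38% against 8.6% in axons. None passed after adjustment in either compartment (limma). Among the early factors Trp53inp2, which binds Atg8 proteins, had a log2 change of 0.72 (SE 0.18, unadjusted p = 0.00179, adjusted p = 0.088) in the somatodendritic compartment. Wdr45b (WIPI3) had 0.49 (SE 0.15, unadjusted p = 0.00712) and Atg16l2, a paralogue of Atg16l1, 1.44 (SE 0.58, unadjusted p = 0.0285), the latter also 2.13 in axons (SE 0.96, unadjusted p = 0.0412). Sh3glb1, which encodes a membrane-bending partner of UVRAG, was the lower one, with -0.52 (SE 0.22, unadjusted p = 0.0364). Of these 4 factors Atg16l2 alone also had an unadjusted p under 0.05 in axons.

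Among fusion and transport factors, the SNARE gene Vamp8 had the smallest p in axons, with a log2 change of -2.40 (SE 0.67, unadjusted p = 0.00268, adjusted p = 0.23). Vamp8 was too low to test in somatodendritic libraries. Stx17, the SNARE of mature autophagosomes, had an axonal knockdown change of -1.55 (SE 0.70, unadjusted p = 0.0424), and Mapk8ip3 (JIP3), a motor adaptor, 0.87 (SE 0.39, unadjusted p = 0.0394). Vps41, a HOPS subunit, had -0.86 (SE 0.39, unadjusted p = 0.0458) in the somatodendritic compartment. The axonal list ended with the ER-phagy receptor Ccpg1 at -1.78 (SE 0.78, unadjusted p = 0.036) and the mTORC1 subunit Akt1s1 at -1.12 (SE 0.46, unadjusted p = 0.0282). None of the 18 upstream regulators tested, among them Mtor and the AMPK subunit genes Prkaa1 and Prkaa2, had an unadjusted p under 0.05 in somatodendritic libraries, and Tfeb was too low to test there.

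Promoters were searched for CACGTG, the core of the element bound by TFEB and related factors that is known from autophagy and lysosome genes. RefSeq promoters (GRCm38.p6, 250 bases before to 50 after a start) were at hand for 25 of the 31 members, and 4 of these held the motif, which reads the same on both strands, against 8.09% of 27025 symbols. The longer TCACGTGA was in 1 member, Atg3, against 1.12% of symbols. Atg3 held CACGTG at 2 places, and the one within the longer motif is shown. These windows are shown because they are the members with the motif, which is in capitals.
Atg3 (chr16:45158746-45158775, plus strand): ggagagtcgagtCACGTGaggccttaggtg
Atg5 (chr10:44268313-44268342, plus strand): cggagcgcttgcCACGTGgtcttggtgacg
Atg7 (chr6:114670952-114670981, plus strand): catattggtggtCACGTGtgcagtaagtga
Atg14 (chr14:47568418-47568447, minus strand): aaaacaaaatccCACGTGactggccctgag

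Of these 4 genes none had an unadjusted p under 0.05 in any of the 5 comparisons, and their somatodendritic knockdown changes pointed both ways (Atg3 0.34, Atg5 0.56, Atg7 -1.30 and Atg14 -0.45). A match is a description and draws nothing about a factor.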

How the data were processed

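The authors deposited FPKM values with 95% intervals for each library. Per the submitters' processing notes, Cufflinks 2.2.1, FastQC 0.10.1 and GRCm38 were used. The mapper's version and the annotation release are not given in the sources used here, and RNA of both compartments had been pre-amplified by PCR. FPKM at or under 0.001 were set to 0. Each library was divided by its median ratio to the geometric mean, taken from genes at 1 FPKM or more throughout the libraries of a fit. Within the somatodendritic compartment the factors were 0.905 to 0.969 in control and 0.993 to 1.15 in knockdown libraries. Within the axonal compartment they were 0.779 to 0.866 in control and 1.02 to 1.52 in knockdown libraries. All knockdown factors were thus above all control factors of their compartment. The knockdown change of each member tested was lower after scaling than as deposited. Genes averaging 1 FPKM or more as deposited were tested on log2(scaled FPKM + 1) with limma 3.58.1 in R 4.3.3 (lmFit, eBayes with trend), adjusted by Benjamini-Hochberg over all genes. Knockdown was tested within each compartment (10 libraries), and compartments and their interaction in 4 group means over 20 libraries. Per-library values in the text are FPKM as deposited. The fit was tested on simulated data. The members and lists were chosen with earlier results of these data known. Members with an unadjusted p under 0.05 in any fit and the Atg8 family are given by library. Further genes are those with an adjusted p under 0.05 under knockdown and at most 3 per list with an unadjusted p under 0.05. Sh3glb1 was added after its values were seen. Rows were matched by symbol, and sequences came from GENCODE M21 and RefSeq. The locus of 20 of 32 genes equalled GENCODE M21. Tables were handled with Python 3.11.15, pandas 2.3.3 and numpy 2.4.6, and figures with matplotlib 3.10.9. Alternatives were other scalings, pseudocounts, filters, weights, a replicate block and leaving out libraries.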

Additional observations from a re-analysis of the deposited data

Results flagged for a closer look

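The 14 members given by library were searched in each of the 4 groups for a library far from the others of its group. This held for 7 of 56 combinations of a transcript and a group, and the other members were not searched. A chance rate of about 1 in 20 applies to independent normal values. FPKM with zeros from libraries of unlike depth need not follow it, so that no excess over chance is drawn from the count. Ulk1 was at 7.07 FPKM in axonal control replicate 1, against 1.94 to 2.56 in the other 3 libraries. Pik3c3 was at 4.99 FPKM in axonal control replicate 4, against 2.53 to 2.93 FPKM, and this library lies on the side of the knockdown values. Wipi1 was at 12.8 FPKM in somatodendritic knockdown replicate 1, against 2.003 to 4.91 FPKM. Atg4b was at 0 in axonal knockdown replicate 5, the shallowest library, against 5.01 to 7.30 FPKM. Atg4d was at 12.1 FPKM in axonal knockdown replicate 4, against 0 to 2.15 FPKM. Map1lc3b was at 12.6 FPKM in axonal control replicate 1, against 19.6 to 19.9 FPKM, and Gabarap at 177 FPKM in somatodendritic control replicate 1, against 151 to 152 FPKM.

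The knockdown difference of Pik3c3 was unlike between the compartments, with a log2 difference of differences of 1.39 (95% interval 0.31 to 2.47) at an unadjusted p of 0.0139 that did not pass after adjustment in limma.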

How the results depend on the processing

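No member passed after adjustment with knockdown in either compartment under any alternative. Between compartments 1 member did in control and 1 in knockdown motoneurons with FPKM as deposited, and 3 or 1 did in knockdown without axonal knockdown replicate 3 or 4. The 19 changes of single members with an unadjusted p under 0.05 kept their sign in every alternative that gave a value. Atg4d in knockdown motoneurons was not tested with a mean of 5 FPKM or more. The cause of the shifts below was not tested.

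The somatodendritic median change of the members, 0.03, was 0.23 with FPKM as deposited, 0.18 with quantile normalization and 0.13 with a mean of 5 FPKM or more, and -0.016 to 0.14 without 1 library. The count of 4 (3 higher, 1 lower) was 5 (all higher) with FPKM as deposited, 1 in a single fit of all 20 libraries and 2 to 6 without 1 library. The axonal median, -0.06, was 0.38 with FPKM as deposited, 0.22 with quantile normalization and 0.28 with a mean of 5 FPKM or more, and -0.079 to 0.16 without 1 library. The count of 4 (3 higher, 1 lower) was 5 (all higher) with FPKM as deposited, 6 in a single fit of all 20 libraries, 2 with a mean of 5 FPKM or more, 2 without libraries of relative depth under 0.5 and 0 to 4 without 1 library.

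The control compartment median, -0.38, was -0.80 with FPKM as deposited, -0.56 with a pseudocount of 0.1 and -0.16 with a pseudocount of 5, and -0.43 to -0.19 without 1 library. The count of 2 was 8 with FPKM as deposited, 4 with quantile normalization, 4 with array weights, 6 without libraries of relative depth under 0.5 and 0 to 3 without 1 library. The knockdown compartment median, -0.35, was -0.57 with FPKM as deposited and -0.43 to -0.14 without 1 library. The count of 8 (3 higher, 5 lower) was 8 (1 higher, 7 lower) with FPKM as deposited, 4 without libraries of relative depth under 0.5 and 4 to 8 without 1 library. The count of 1 for the difference of differences was 4 with FPKM as deposited, 2 with array weights, 2 without libraries of relative depth under 0.5 and 1 to 3 without 1 library.

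Deviations of libraries with the same number correlated at -0.04 to 0.04 between compartments and at -0.01 to 0.07 between control and knockdown. Of 10 pairs between compartments 1 correlated best with its own number, so that replicate numbers gave no sign of pairing. The study took RNA from both compartments of its chambers and processed control and knockdown motoneurons in parallel. Low correlations of imprecise values cannot exclude that libraries were paired. With the replicate block the axonal knockdown count was 0 and the axonal median 0.29, and the control compartment count was 1.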
